A study of Homo sapiens with 8 samples.

Results

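The common core of resistance is the set of genes whose RNA differed from therapy naive cells in the same direction, by at least 1.5-fold, in each of 3 H3122 lines that had evolved resistance to a different ALK tyrosine kinase inhibitor (ALK-TKI). It held 279 of the 12705 genes that reached the level limit, from 43869 genes in the table, with 127 genes higher and 152 lower in all 3 lines. H3122 is a human lung adenocarcinoma cell line that grows on signals from the EML4-ALK fusion kinase. The naive cells had no drug in their label. The erCriz0 line carried the label 0.5 µM crizotinib, erAlec0 2 µM alectinib and erLor0 2 µM lorlatinib, and each was derived from H3122 by raising the drug in steps, which the 0 in the line names marks. The RNA was taken 48 h after the inhibitors had been removed. Each line is 1 derived population of the same parental cells, with 1 RNA-seq and 1 H3K27ac ChIP-seq library, so differences between drugs and differences between independently derived populations cannot be told apart.

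All 3 changes of a gene were taken against the same naive library, and an error in that library enters all 3 of them. The RNA values also chose the genes. No p-value is therefore given for RNA, and for H3K27ac an exact permutation test of 3 lines against 1 naive library cannot go below p = 0.25 (one-sided). The spread given beside each mean is the SD of the 3 lines (n = 3 lines), which is a spread between lines and not between replicates of a line. Values are regularised log2 values (rlog), in which low counts are drawn towards the mean of the gene. A gene entered when its highest rlog value was at least 4.64, and a change of 0.585 on this log2 scale corresponds to 1.5-fold.

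ALK-TKIs block the kinase that drives these cells, and resistance can come from changes in ALK itself, from other receptors that feed the same pathways, or from shifts of the cell state such as a partial move from an epithelial to a mesenchymal program. Genes for DNA replication, among them the MCM helicase subunits and the histones made in S phase, follow the share of cells that are cycling. H3K27ac, acetylation of histone H3 at lysine 27, marks active promoters and enhancers.

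The libraries kept an epithelial profile. In the list of 9 lung epithelial markers 8 reached the level limit, with EPCAM between 12.3 and 12.6 and NKX2-1 between 8.67 and 9.18, while NAPSA stayed between 3.53 and 4.23. Of the leukocyte markers none reached the limit in any library. CD14 was nearest to it (4.31 to 4.53), and PTPRC and MS4A1 were listed at 0. Of the endothelial markers CDH5 (4.10 to 5.78) and KDR (5.43 to 7.01) reached it, whereas PECAM1 and VWF were near 0. Of the fibroblast markers only COL1A1 (9.49 to 10.1) reached it, and DCN lay between 1.45 and 1.64. The part of these genes in the results was not tested.

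How large was the core against its background? The 279 genes were 2.20% of those at the level limit, the 127 higher genes 1.00% and the 152 lower genes 1.20%. Within single lines, 7.56% of genes were higher by the same limit in erCriz0, with 7.93% and 4.44% for erAlec0 and erLor0, and 8.52%, 8.0% and 3.65% were lower. Without a size limit, 22.5% of genes were above naive in all 3 lines and 24.5% were below it. Because the lines share the naive library, these shares are a description of the rule and carry no test.

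The erLor0 line most often had the smallest change. The median RNA change of the higher genes was 1.01, 1.14 and 0.86 in erCriz0, erAlec0 and erLor0, and that of the lower genes was -0.95, -1.19 and -0.83. The erLor0 change was the smallest of the 3 in 66 of the 127 higher and in 82 of the 152 lower genes. Over all 12705 genes at the level limit it was also most often the smallest, in 5623. The erAlec0 change was the largest in 63 higher and 86 lower genes, and in 4872 of all genes at the level limit. The median SD over the lines was 0.29 for the higher genes and 0.24 for the lower genes, against 0.21 over all genes at the level limit. Of 129 genes with a mean change of at least 1, 61 were not core, and of 90 genes with a mean change of -1 or below, 20 were not core. Naive levels also differed, with a median rlog of 6.99 in the higher genes, 8.06 in the lower genes and 8.14 overall.

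**Figure D1:**
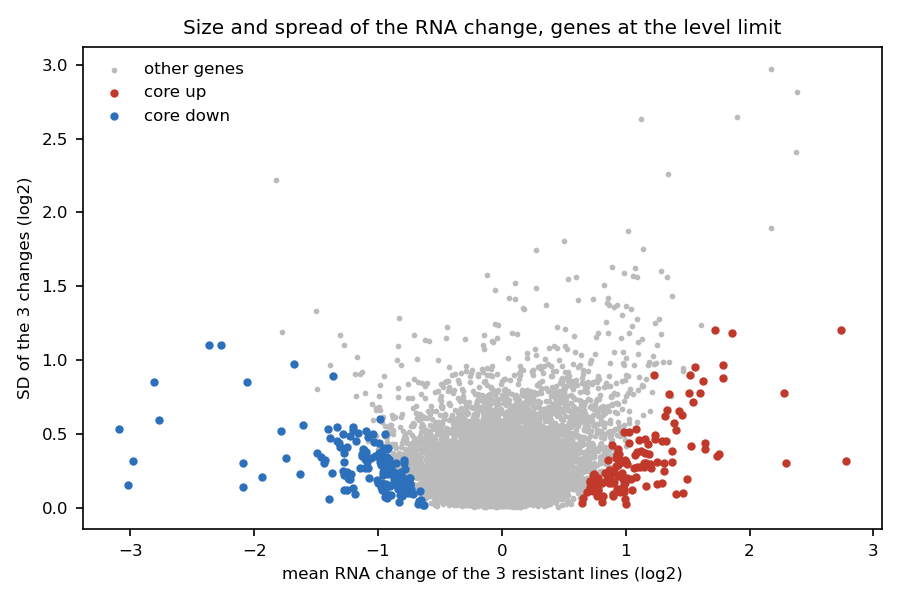
Each point is 1 of 12705 genes, with the mean RNA change of the 3 resistant lines against naive cells on the x axis (log2) and the SD of the 3 changes on the y axis (log2). The 127 core genes that were higher (red) and the 152 that were lower (blue) lie along the lower flanks, and grey points at large means and large SD are genes that differed from naive in some of the lines.

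Just inside the limit of 0.585 on the higher side were COL13A1, MRAS and ENSG00000256615, whose nearest changes were 0.586, 0.587 and 0.587. Just outside were WSB1, PFKFB2 and MAP1LC3B2 at 0.584, 0.582 and 0.572. On the lower side PKMYT1, PARPBP and FRMPD3 were inside at -0.586, -0.587 and -0.588, and CDCA5, CRABP2 and ENSG00000188897 were outside at -0.582, -0.582 and -0.578.

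The genes higher in every line are described by role, beginning with secreted and matrix-degrading proteins. MMP1, an interstitial collagenase (hg38 chr11:102789919-102798160), had an rlog value of 6.14 in naive cells, 8.56, 9.08 and 9.13 in erCriz0, erAlec0 and erLor0. Its mean change of 2.78 ± 0.32 (SD, n = 3 lines) was the largest of the higher genes, and the resistant lines lay close together. VGF, a secreted neuropeptide precursor, was 9.26 in naive cells against 11.9, 11.5 and 11.3 in erCriz0, erAlec0 and erLor0. PAEP, a secreted lipocalin also called glycodelin, had nearly as large a mean as MMP1 but an uneven one, with 7.03 in naive cells, 10.5, 10.4 and 8.38 in the erCriz0, erAlec0 and erLor0 libraries. CEMIP, which takes part in breaking down hyaluronan, was 8.80 in naive cells and between 10.1 and 10.5 in the lines. MMP14, a membrane-bound collagenase, was 8.16 in naive cells and 8.85, 9.01 and 9.39 in erCriz0, erAlec0 and erLor0.

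Receptors and signalling genes formed another group. IL1RL1, the receptor for interleukin-33, was 4.97 in naive cells and 6.59, 6.45 and 7.14 in the lines, and it overlaps the neighbouring interleukin receptor gene IL18R1, so that reads of the 2 genes may be hard to part. AXL, a receptor tyrosine kinase often raised in TKI-resistant tumours, was 4.62 in naive cells and 5.68, 5.56 and 5.60 in erCriz0, erAlec0 and erLor0. Its change of 0.99 ± 0.06 (SD, n = 3 lines) was 1 of the most even of the core. EGFR, the epidermal growth factor receptor, was 10.8 in naive cells and 11.9, 11.7 and 11.5 in the lines. PDE4B, which degrades cyclic AMP, was 4.56 in naive cells and between 5.87 and 6.05 in the lines. DUSP6, a phosphatase that is itself induced by ERK and switches ERK off, was 11.86 in naive cells and 12.65, 13.03 and 12.58 in erCriz0, erAlec0 and erLor0. MRAS, a RAS-family GTPase that binds SHOC2, was 4.79 in naive cells and 5.38, 5.43 and 5.71 in the lines, just past the limit.

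A further group held genes of adhesion, the cell surface and the squamous or mesenchymal program. CDH3, P-cadherin, was 8.67 in naive cells and 10.4, 9.79 and 9.95 in erCriz0, erAlec0 and erLor0. CLDN1, a tight junction protein, was 7.68 in naive cells and 9.08, 8.75 and 8.54 in the lines. SCEL, a protein of the cornified envelope, was 10.4 in naive cells and between 11.81 and 11.99 in the lines. CD44, the hyaluronan receptor, was 10.2 in naive cells and 11.6, 10.9 and 11.8 in the lines. WWTR1, which encodes the Hippo pathway coactivator TAZ, was 9.52 in naive cells and 10.9, 10.4 and 10.5 in the lines. SNAI2, a transcription factor that represses epithelial genes, was low, at 3.95 in naive cells and 4.92, 4.62 and 4.60 in the lines. ANXA1, a phospholipid-binding protein, was 6.94 in naive cells and 8.20, 8.52 and 8.03 in the lines. S100A10, a partner of annexin A2, was the most abundant of the named higher genes on the rlog scale, with 14.2 in naive cells and 14.9, 15.2 and 14.9 in the lines. In each of these genes all 3 resistant lines were above the naive library.

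Of the remaining leading genes, TCIM (5.09 in naive cells, 7.16, 8.24 and 6.73 in the lines), RAB31, a small GTPase of vesicle traffic (8.72, then 10.8, 10.1 and 10.1), UNC13A, a presynaptic vesicle-priming protein (8.18, then 10.1, 10.1 and 9.51), and TSPAN18 (7.05, then 8.18, 8.48 and 8.24) had mean changes between 1.25 and 2.28. KRT16P2, a keratin 16 pseudogene, was 8.25 in naive cells and 10.4, 9.78 and 9.53 in the lines, and reads of its near-identical relatives may have been counted there. ENSG00000279806 lies beside TNS4, itself a core gene, and went from 5.70 to 6.90, 7.19 and 6.90.

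**Figure D2:**
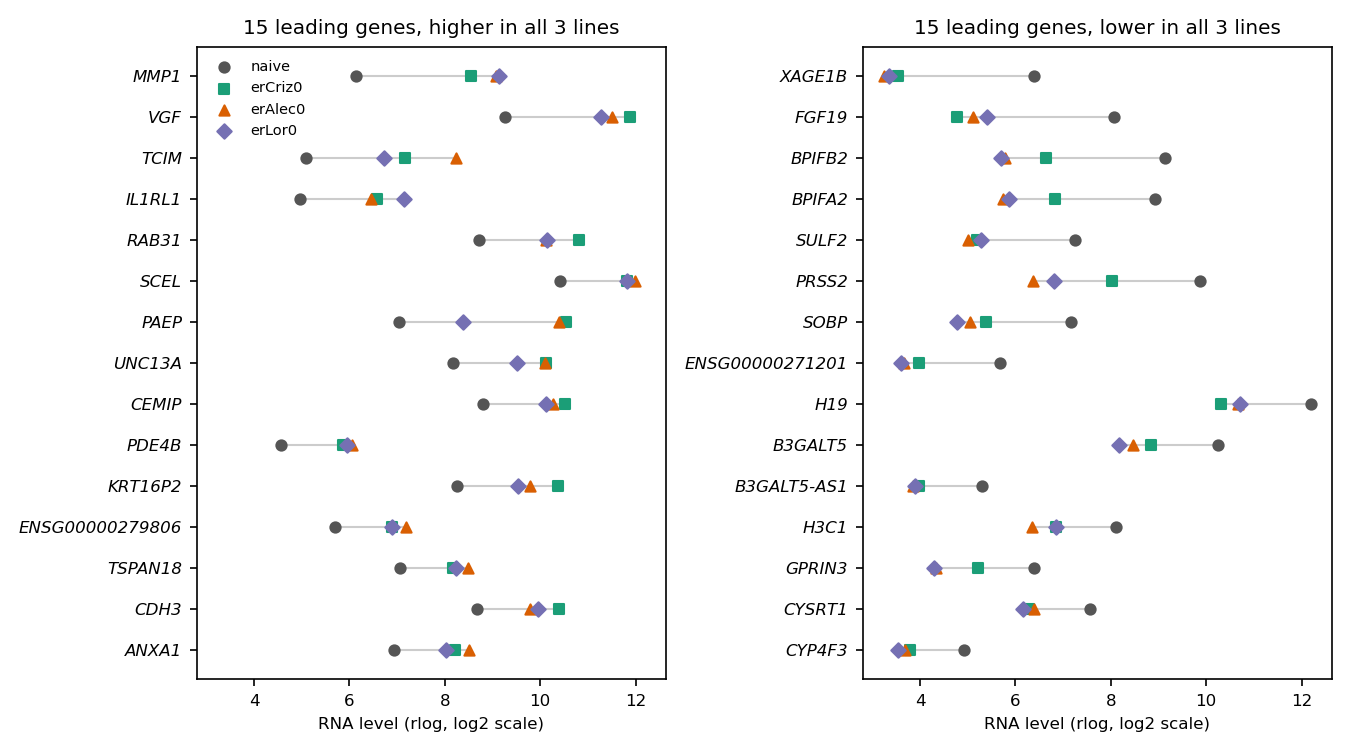
RNA level (rlog, log2 scale, x axis) in the naive library (grey circles), erCriz0 (green squares), erAlec0 (orange triangles) and erLor0 (purple diamonds) for the 15 higher (left) and 15 lower (right) core genes with the largest smallest change, 1 library per point. MMP1 went from 6.14 to between 8.56 and 9.13, and XAGE1B from 6.40 to between 3.25 and 3.55.

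The 15 leading genes that were lower in every line were of mixed kinds. XAGE1B, a cancer-testis antigen on the X chromosome with near-identical copies, was 6.40 in naive cells and 3.55, 3.25 and 3.35 in erCriz0, erAlec0 and erLor0, a mean change of -3.02 ± 0.15 (SD, n = 3 lines). FGF19, a secreted fibroblast growth factor that signals through FGFR4, was 8.07 in naive cells and 4.77, 5.12 and 5.40 in the lines. BPIFB2 and BPIFA2 are neighbouring genes of the BPI fold family of secreted proteins on chromosome 20. BPIFB2 was 9.13 in naive cells and 6.65, 5.77 and 5.69 in the lines, and BPIFA2 was 8.92 and then 6.83, 5.75 and 5.87. PRSS2, a trypsinogen, was 9.88 in naive cells and 8.02, 6.37 and 6.81 in the lines, and its neighbour PRSS1 went from 8.74 to 7.65, 5.71 and 5.79. These trypsinogens are close paralogs, and their counts may be split between them. In both, erCriz0 kept the highest level of the resistant lines.

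H19, an imprinted long noncoding RNA (chr11:1995176-2001470), was the most abundant of the 15 leading lower genes on the rlog scale, with 12.2 in naive cells and 10.3, 10.7 and 10.7 in the lines. SULF2, which trims sulfate groups from heparan sulfate, was 7.25 in naive cells and 5.19, 5.01 and 5.28 in the lines. SOBP was 7.16 and then 5.38, 5.06 and 4.78. B3GALT5, a galactosyltransferase, went from 10.2 to 8.85, 8.46 and 8.18, and its antisense transcript B3GALT5-AS1, from 5.31 to 3.98, 3.86 and 3.89, cannot be told from it where counting ignores strand. GPRIN3 (6.39, then 5.21, 4.33 and 4.29), CYSRT1 (7.55, then 6.28, 6.39 and 6.16) and CYP4F3, a fatty acid hydroxylase (4.92, then 3.79, 3.68 and 3.54), completed the leading genes together with the noncoding ENSG00000271201 (5.69, then 3.99, 3.67 and 3.60) and the histone gene H3C1. TIMP3, an inhibitor of metalloproteinases, was 6.33 in naive cells and 5.55, 5.40 and 5.23 in the lines. SCGB3A1, a secretoglobin of airway cells, was low, at 5.04 and then 4.25, 3.95 and 4.31.

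Cell cycle genes were among the lower genes. Of the 33 measured genes of the cell cycle and proliferation list 10 were core lower (30.3%, against 1.20% of all genes) and 0 core higher (against 1.00%). In all, 28 were below naive in all 3 lines, where 24.5% of all genes were. The median mean change of the list was -0.57, against medians near 0 over all genes in each line (-0.017, 0.0020 and -0.0042 in erCriz0, erAlec0 and erLor0). PCNA, the sliding clamp of DNA polymerases, was 9.50 in naive cells and 8.52, 7.69 and 8.34 in erCriz0, erAlec0 and erLor0. RRM2, a ribonucleotide reductase subunit, was 12.2 and then 11.2, 10.5 and 11.4. TYMS, which makes thymidylate, was 9.25 and then 8.35, 7.80 and 8.43. E2F1, a transcription factor of S phase entry, was 7.40 and then 6.03, 5.79 and 6.79. MCM2 (9.38, then 8.54, 8.14 and 8.63), MCM4 (11.2, then 10.6, 9.62 and 10.3) and MCM5 (9.65, then 8.78, 8.46 and 8.99) were the MCM helicase subunits in the core. The mitotic genes CCNB2 and AURKB and the phosphatase CDC25A had mean changes of -0.81, -0.84 and -0.74. In each of the named genes all 3 lines were below the naive library. In bulk RNA fewer cycling cells and less of this RNA per cell cannot be told apart. CCND1 (-0.05 ± 0.11) and CDKN1A (-0.08 ± 0.49), also in the list, were within their spread of 0, and CDK6 (0.39 ± 0.12) was above it (SD, n = 3 lines).

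Replication-dependent histone genes and the replicative helicase were grouped after their values had been seen, so that these counts describe the core and support nothing else. Of 28 measured histone genes 18 were core lower (64.3%, against 1.20% of all genes). In all 3 lines 27 were below naive, where 24.5% of all genes were, with a median mean change of -0.81. They included 2 runs of neighbours on chromosome 6, namely 7 genes between 26020490 and 26157107 (H3C1, H3C2, H2AC4, H1-2, H1-6, H2BC4 and H1-4) and 7 between 27807444 and 27893843 (H2BC13, H2AC13, H3C10, H2BC15, H2AC15, H2AC16 and H2BC17). H3C1 was 8.12 in naive cells and 6.86, 6.34 and 6.85 in the lines, and H1-4, the most abundant, 13.4 and then 12.4, 12.8 and 12.8. Histone genes are near-identical to each other, and how reads were divided among them is uncertain. Most of their transcripts lack a poly(A) tail. Of 11 subunits and partners of the replicative helicase 6 were core lower (54.5%) and all 11 were below naive in every line, with GINS1 at -1.23 ± 0.19 and CDC45 at -0.98 ± 0.29 (SD, n = 3 lines).

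The AKR1C genes on chromosome 10, between 4963253 and 5107686, were the members of the NRF2 target list in the core. These enzymes reduce steroids and aldehydes. AKR1C2 was 7.92 in naive cells against 5.09, 4.96 and 6.93 in erCriz0, erAlec0 and erLor0. AKR1C3 was 6.32 and then 5.26, 4.46 and 5.39, and AKR1C1 5.71 and then 4.62, 4.16 and 5.11. In all 3 genes the erLor0 value was nearest to naive, and as close paralogs they may share reads. Of the 20 measured NRF2 targets 3 were core lower (15%, against 1.20% of all genes) and 0 core higher (against 1.00%). In all 3 lines 7 were below naive, where 24.5% of all genes were. Other members were GPX2 at -0.87 ± 0.32 and NQO1 at -0.79 ± 0.48, while SLC7A11, the cystine transporter, was at 0.65 ± 0.48.

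Lists that bear on bypass and plasticity had between 1 and 5 core members each, and their shares stand here beside the 1.00% of all genes that were core higher and the 1.20% that were core lower. Of 16 mesenchymal genes 3 were core higher (18.8%, namely CD44, WWTR1 and SNAI2) and 0 core lower, with a median mean change of 0.76. VIM, vimentin, had a larger mean than these (1.46 ± 0.93) but differed between the lines, as did FN1 (0.89 ± 0.46) and SPARC (1.03 ± 0.60). In the mesenchymal list 9 genes were above naive in all 3 lines and 2 below it, against 22.5% and 24.5% of all genes. A mean below 0 was found in 4 of them, the lowest at -0.54. The median of the list was 0.74, 0.65 and 0.35 in erCriz0, erAlec0 and erLor0. Of 25 epithelial genes 2 were core higher (8%, CDH3 and CLDN1), and CDH1, E-cadherin, was at 0.09 ± 0.13. Of 22 receptor tyrosine kinases 2 were core higher (9.09%, AXL and EGFR), whereas ALK (1.27 ± 1.28), EPHA4 (0.96 ± 0.51), EPHA2 (0.87 ± 0.58) and ERBB3 (0.57 ± 0.31) had means above 0 without passing in every line. Of 19 YAP, TAZ and TEAD genes 2 were core higher (10.5%, AXL and WWTR1) with a median of 0.33. Of 12 S100 genes 1 was core higher (8.33%), with a median of 0.71, and S100A9 showed the widest spread (1.12 ± 2.63). Of 28 proteases and inhibitors 2 were core higher (7.14%, MMP1 and MMP14) and 3 core lower (10.7%, PRSS1, PRSS2 and TIMP3), and PLAT had a mean of 2.17 ± 1.90. Of 18 genes of ERK output and feedback DUSP6 was the core member (5.56%), with DUSP5 at 0.95 ± 0.48, SPRY4 at 0.36 ± 0.42 and EGR1 at -0.36 ± 0.34. IL1RL1 was the core member among 18 cytokine and NF-kB genes (5.56%), and the airway and alveolar list of 23 held 3 core lower genes (13.04%, BPIFB2, BPIFA2 and SCGB3A1).

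Several lists had no core gene in either direction. Of 30 extracellular matrix and integrin genes 0 were core, although 16 were above naive in all 3 lines, where 22.5% of all genes were, and the median was 0.48. Of 30 interferon-stimulated genes 0 were core, with medians of 1.05 in erCriz0 but -0.02 in erAlec0 and -0.06 in erLor0, and of 15 HLA class I genes likewise 0, with medians of 0.60, 0.01 and -0.31. The lists of aldehyde dehydrogenases, glycolysis and hypoxia, ATF4 response, cholesterol and fatty acid synthesis, the BCL2 family, ABC drug transporters and AP-1 factors also held 0 core genes, with medians between -0.09 and 0.26. Complement inhibitors protect cells from lysis, and 3 out of 5 measured were core higher (60%, against 1.00% of all genes). They were CD55 at 1.45 ± 0.63, CD59 at 0.93 ± 0.37 and SERPING1 at 1.23 ± 0.90, in a group chosen after its values had been seen.

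The lower core was unevenly spread over the chromosomes. Chromosome 20 held 18 of the 152 lower genes and 1 of the 127 higher genes, so that 5.37% of its 335 genes at the level limit were core lower against 1.20% over all chromosomes. That is 11.8% of the lower core from a chromosome with 2.64% of the genes. The median RNA change on this chromosome was -0.32, -0.17 and -0.17 in erCriz0, erAlec0 and erLor0, and the median H3K27ac peak change was -0.22, -0.32 and -0.23, while both medians were near 0 over the genome. In all, 79.7% of its genes had a mean RNA change below 0. PCNA, E2F1, GINS1, SULF2, BPIFB2 and BPIFA2 are among these genes. Whether the DNA content of chromosome 20 differed between the lines was not tested. Chromosome 6 held 24 lower genes (3.66% of its genes at the limit), of which 14 lie in the 2 histone runs above. With each change centred on the median of its chromosome, a comparison added after the data had been seen, 129 genes were core higher and 146 core lower, of which 114 and 129 were the same genes.

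**Figure D3:**
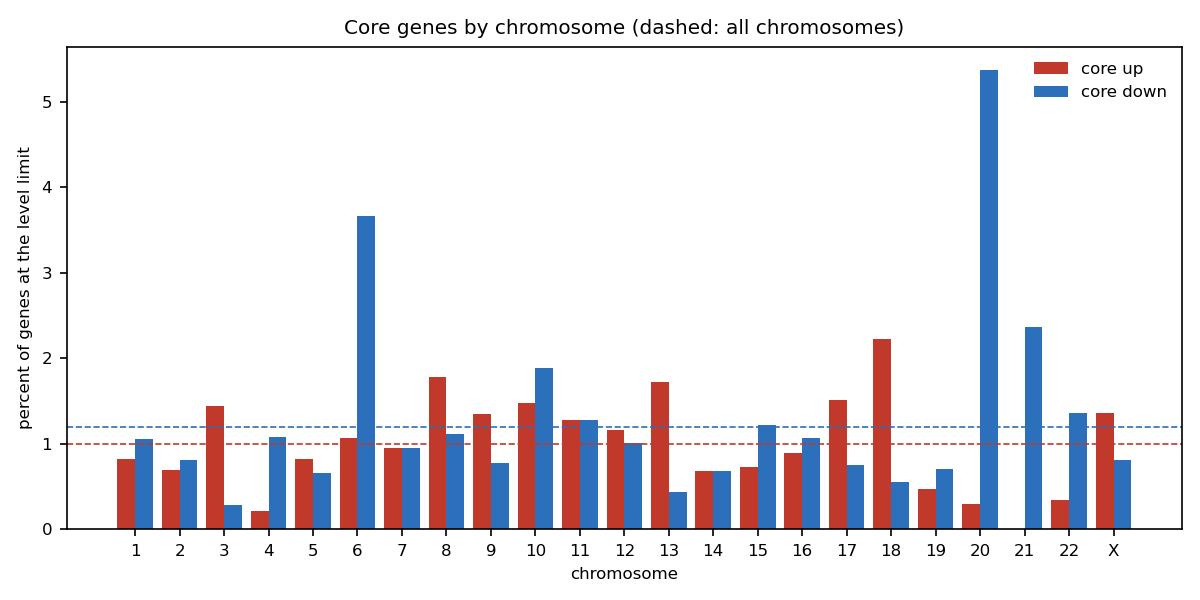
Percent of the genes at the level limit on each chromosome (x axis) that were core higher (red bars) or core lower (blue bars), with dashed lines at the shares over all chromosomes (1.00% and 1.20%). Chromosomes 20 (5.37%) and 6 (3.66%) stand out among the lower genes.

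Did H3K27ac at the core genes differ in the direction of their RNA? The ChIP-seq libraries are separate from the RNA libraries and had no part in choosing the genes. The study's methods give the 48 h without inhibitor for RNA and do not state it for ChIP-seq. The 2 assays may therefore differ in drug state. Each gene was paired by the authors with the peaks within 20 kb, and the 127 higher genes had 1800 distinct peaks and the 152 lower genes 1465. Averaged over all peaks of a gene, H3K27ac had medians near 0 in both sets of genes. The median gene-mean change of the higher genes was 0.06, -0.01 and 0.03 in erCriz0, erAlec0 and erLor0, that of the lower genes 0.03, 0.02 and -0.03, and that of all genes at the limit 0.09, 0.07 and 0.13. Among the higher genes 38 (29.9%) were above naive in all 3 lines, against 37.1% of all genes, and among the lower genes 35 (23.03%) were below it in all 3, against 19.9% of all genes. The gene mean passed the limit of 0.585 upward in every line in 4 higher genes (3.15%, against 1.62%) and downward in 5 lower genes (3.29%, against 1.35%). At least 1 peak was up by the limit in every line for 41 higher (32.3%) and 14 lower genes (9.21%), against 20.4% of all genes, and at least 1 was down for 42 (33.1%) and 41 (26.97%), against 24.3%. Such shares rise with the number of peaks per gene, whose median was 10 in the higher, 9 in the lower and 8 in all genes. Counted per distinct peak, 3% of the peaks of higher genes and 1.37% of those of lower genes were up, against 3.01% over all genes. Down were 8.67% and 9.15%, against 7.74%.

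Transcription starts were taken separately. A peak over an annotated start of the gene was present for 112 of the 127 higher and 134 of the 152 lower genes. At such peaks H3K27ac was above naive for genes in general, with a median change over 11644 genes of 0.32, 0.23 and 0.38 in erCriz0, erAlec0 and erLor0. The higher core genes had medians of 0.42, 0.39 and 0.43, and the lower core genes 0.24, 0.35 and 0.27, so the order of the lower genes against the background turned between erAlec0 and the other lines. Start-site H3K27ac was above naive in all 3 lines for 63 of the higher (56.2%) and 57 of the lower genes (42.5%), against 61.9% of all genes, and below it for 6 (5.36%) and 10 (7.46%), against 6.30%. It passed the limit upward in all 3 lines in 16 of the 112 higher genes (14.3%), in 4 of the 134 lower genes (2.99%) and in 7.52% of all genes. It passed downward in all 3 lines in 1 of the higher (0.893%), 2 of the lower (1.49%) and 0.326% of all genes. The 16 genes were OSMR, DISC1, KIAA0040, PNMA2, SNAI2, CD274, DYSF, CD44, CDH3, WIPI1, MDFIC, L3MBTL4, EPB41L4A, TMEM200C, PPP2R3A and MRAS, some of them named after their values had been seen. In the same lists peaks away from start sites had lower medians, between -0.10 and 0.00 for the higher genes and between -0.24 and -0.05 for the lower genes, beside -0.10 to -0.04 over all genes.

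**Figure D4:**
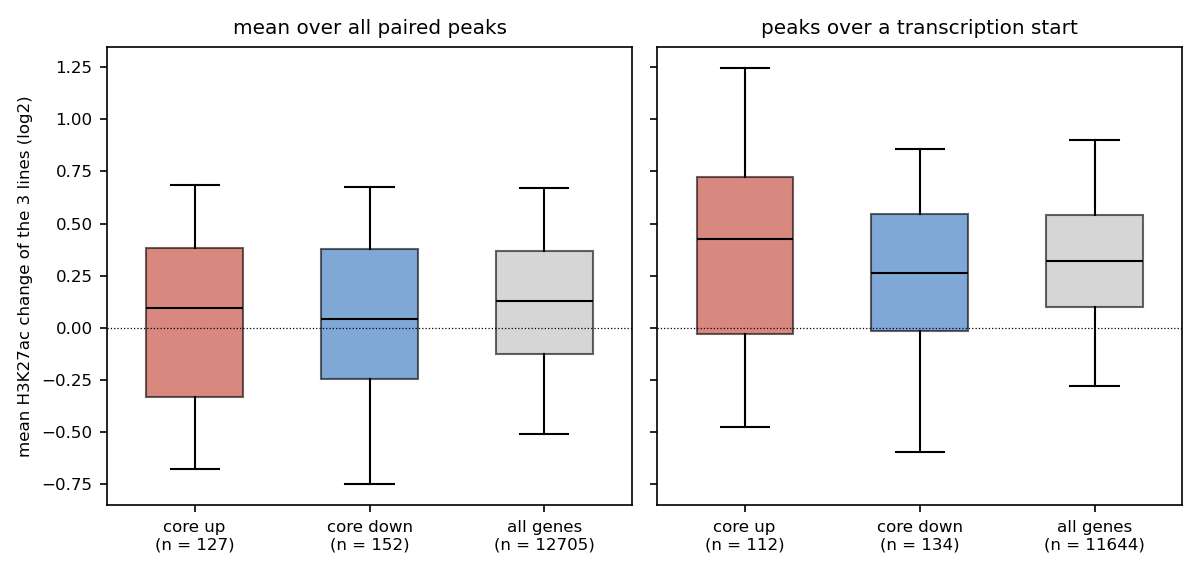
Mean H3K27ac change of the 3 resistant lines against naive cells (y axis, log2) per gene, as the mean over all paired peaks (left) and over peaks at a transcription start (right), for core higher genes (red), core lower genes (blue) and all genes at the level limit (grey). Boxes show quartiles and the median and whiskers the 5th and 95th percentiles over genes, which overlap widely between the groups.

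Several genes carried RNA and start-site H3K27ac in the same direction. At the single start-site peak of SNAI2 the H3K27ac rlog was 5.83 in naive cells and 6.87, 6.85 and 6.43 in erCriz0, erAlec0 and erLor0. CD44 had start-site changes of 0.98, 0.82 and 1.37, CDH3 of 0.85, 1.18 and 1.23, and CD274, which encodes PD-L1 and whose RNA was 6.30 in naive cells and 7.93, 8.18 and 7.37 in the lines, of 1.31, 0.77 and 0.78. Over all peaks of a gene, the largest means in the direction of the RNA were those of TMEM200C (1.20 ± 0.45), MRAS (1.08 ± 0.34), SNAI2 (0.88 ± 0.25), PNMA2 (0.83 ± 0.06), the noncoding LINC00632 (0.80 ± 0.52), CPM, a carboxypeptidase (0.77 ± 0.58), SERPING1 (0.71 ± 0.51) and SOWAHC (0.68 ± 0.18; SD, n = 3 lines). Of these PNMA2, LINC00632, SNAI2, SERPING1 and SOWAHC had 1 peak each.

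Among the lower genes, large means in the direction of the RNA were those of ENSG00000271201 (-1.80 ± 0.29), NGFR, the low-affinity neurotrophin receptor (-0.98 ± 0.45), BPIFB2 (-0.94 ± 0.56), SLC12A2, a sodium, potassium and chloride carrier (-0.90 ± 0.32), F13A1, a coagulation factor subunit (-0.80 ± 0.11), SPC24, a kinetochore protein (-0.77 ± 0.13), and H19 (-0.75 ± 0.34). The peak over the start of ENSG00000271201 (chr14:106196566-106210853) was 11.5 in naive cells and 8.74, 9.75 and 9.38 in the lines. H19 and ENSG00000271201 were the lower genes whose start-site H3K27ac passed the limit downward in every line. A peak over H19 (chr11:1995152-1997718) was 7.65 in naive cells and 5.84, 6.20 and 6.80 in the lines. The 4 peaks of SLC12A2 and 9 of SPC24 that were down in every line did not include their start sites, where the mean changes were 0.46, -0.01 and 0.49 for SLC12A2 and -0.19, 0.48 and 0.00 for SPC24.

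**Figure D5:**
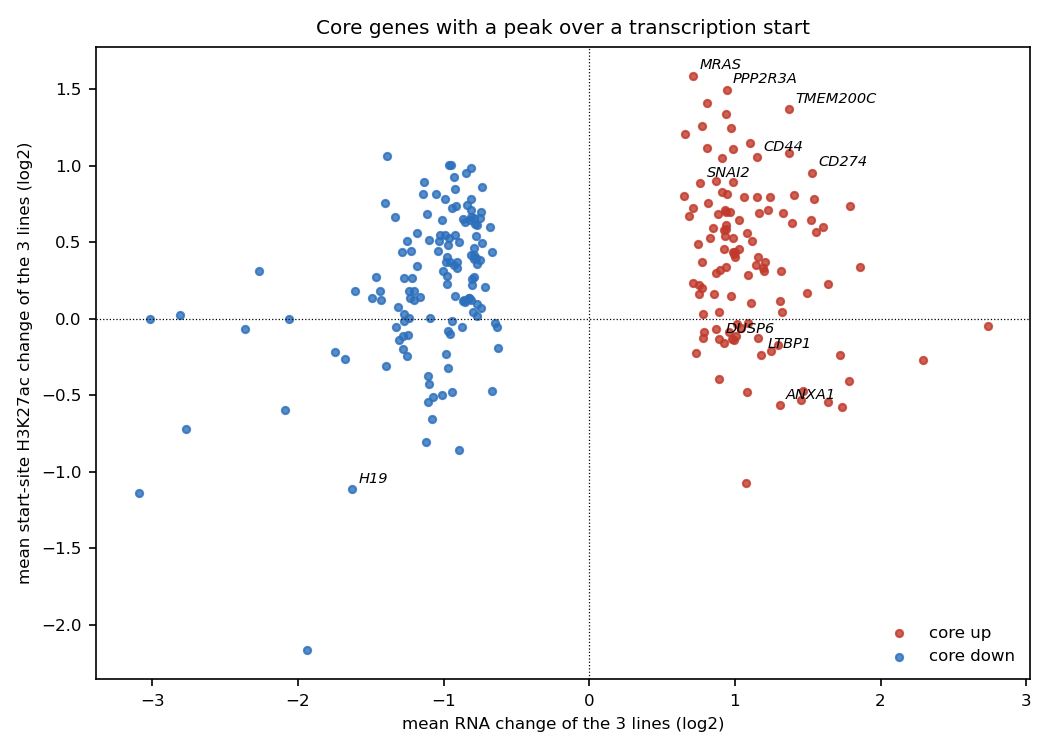
Mean RNA change (x axis, log2) against mean start-site H3K27ac change (y axis, log2) of the 3 lines for core genes with a peak over a transcription start, 112 higher (red) and 134 lower (blue). Most points of both colours lie above 0 on the y axis, and ENSG00000271201 (the lowest point) and H19 lie below it.

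In other genes the mark and the RNA went apart. DUSP6 had a higher RNA in every line, yet its gene-mean H3K27ac differed by -0.98, -1.22 and -1.45 in erCriz0, erAlec0 and erLor0 over 14 peaks, 11 of which were down by the limit in every line. Its start-site peak (chr12:89342569-89360474), the strongest, differed by 0.22, -0.42 and -0.19. Peaks elsewhere within 5 Mb of it had medians of -0.31, -0.50 and -0.62 in these lines, and the part of the region in the gene's value was not tested. TCIM (-0.62, -0.91 and -0.85), SCEL (-0.36, -1.04 and -0.92), ANXA1 (-0.41, -0.55 and -0.85) and S100A10 (-0.82, -0.14 and -0.55) also had H3K27ac below naive in all 3 lines beside a higher RNA. MMP1, with the largest RNA change, had no peak at its start and gene-mean changes of -0.20, -0.06 and -0.19 over 5 peaks. In the opposite sense, the start-site changes of TYMS were 0.44, 1.32 and 0.68, those of CCNB2 0.27, 1.57 and 1.12 and those of MCM2 0.31, 0.91 and 0.94, beside a lower RNA. FGF19 had 4 peaks, none over its start, with gene-mean changes of -0.15, -0.36 and -0.47, and the peaks of XAGE1B were listed at 0 in every library.

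Promoter windows were looked at next. RefSeq (GRCh38.p14) promoter windows of 300 bases, 250 before and 50 after the start, were matched to 207 of the 279 core genes. A peak over the window was up by the limit in all 3 lines for 17 of 89 higher genes (19.1%), 3 of 118 lower genes (2.54%) and 7.97% of all genes with a window, and down for 1, 0 and 0.203%. The 4 windows with the largest smallest change were those of MRAS, LTBP1, TMEM200C and KSR1. A peak that overlaps each window was above naive in every line, as was the RNA, and the runs of 250 bases before their starts are shown. The KSR1 peak (chr17:27456471-27457109) begins after the end of the KSR1 run, which lies outside it. The TMEM200C peak (chr18:5895753-5896311) covers part of the TMEM200C run. None of these runs holds an annotated exon. The runs are chr3:138348329-138348578 (plus strand, MRAS), chr2:32946703-32946952 (plus, LTBP1), chr18:5896175-5896424 (minus, TMEM200C) and chr17:27456198-27456447 (plus, KSR1). They are written 5′ to 3′ in the sense of the gene, and capitals mark matches to the searched letters TGANTCA (AP-1), GGAATG (TEAD), CAGGTG (the E-box of SNAI and ZEB factors) and GCCNNNGGC (TFAP2) on either strand.
MRAS: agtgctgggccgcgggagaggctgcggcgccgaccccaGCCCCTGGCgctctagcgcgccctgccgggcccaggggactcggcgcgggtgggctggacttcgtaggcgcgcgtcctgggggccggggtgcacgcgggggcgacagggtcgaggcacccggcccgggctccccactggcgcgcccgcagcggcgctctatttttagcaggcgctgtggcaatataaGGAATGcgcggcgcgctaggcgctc
LTBP1: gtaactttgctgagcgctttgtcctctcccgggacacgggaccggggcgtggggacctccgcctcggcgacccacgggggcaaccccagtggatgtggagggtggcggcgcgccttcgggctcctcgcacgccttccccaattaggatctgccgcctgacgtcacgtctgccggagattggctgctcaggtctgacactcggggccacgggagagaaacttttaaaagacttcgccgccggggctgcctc
TMEM200C: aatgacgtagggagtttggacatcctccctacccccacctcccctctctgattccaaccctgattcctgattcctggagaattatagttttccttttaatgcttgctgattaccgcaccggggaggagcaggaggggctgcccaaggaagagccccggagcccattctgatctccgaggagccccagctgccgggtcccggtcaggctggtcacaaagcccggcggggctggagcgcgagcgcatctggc
KSR1: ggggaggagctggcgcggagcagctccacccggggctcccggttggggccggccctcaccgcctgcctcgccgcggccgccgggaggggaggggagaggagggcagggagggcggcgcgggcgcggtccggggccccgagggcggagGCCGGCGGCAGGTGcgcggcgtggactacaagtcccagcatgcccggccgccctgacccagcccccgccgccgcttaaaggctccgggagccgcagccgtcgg

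The peak at the MRAS window was 3.99 in naive cells and 5.30, 5.61 and 5.83 in erCriz0, erAlec0 and erLor0. That of LTBP1, which binds latent TGF-beta, was 4.29 and then 5.45, 6.24 and 6.36, although the mean over all 4 start-site peaks of LTBP1 differed by 0.42, -0.54 and -0.58. That of TMEM200C was 3.79 and then 4.81, 5.37 and 5.29, and that of KSR1, a scaffold of the RAF, MEK and ERK cascade, was 4.06 and then 5.02, 5.23 and 5.32. The median over all peaks in the naive library was 4.12. In all 4 peaks the erCriz0 value was the nearest to naive. The MRAS run holds a GCCNNNGGC and a GGAATG match, in KSR1 a GCCNNNGGC and a CAGGTG match overlap, and the LTBP1 and TMEM200C runs hold none of the searched letters. A match is a match of letters and says nothing of binding.

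Motif shares were counted over whole windows, as a description. TGANTCA was found in 8 of 89 higher (8.99%) and 9 of 118 lower windows (7.63%), against 4.43% of the 9860 windows of genes at the limit and 7.76% of all 27305 windows. GGAATG was in 11.2% and 10.2% against 10.4% and 14.05%. CAGGTG was in 22.5% and 15.3% against 18.6% and 20.6%. GCCNNNGGC was in 31.5% and 32.2% against 32.6% and 23.04%. The shares with TGANTCA rest on 8 and 9 windows.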

How the data were processed

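The deposited table pairs each gene with the H3K27ac peaks within 20 kb of it and gives log2 values of RNA and of merged peaks in 4 libraries each (naive, erCriz0, erAlec0 and erLor0). According to the study's methods, the authors made these log2 values with the rlog function of DESeq2 after leaving out genes under 25 reads and peaks under 15 reads. The versions of these tools are not given in the sources used here. Counts and depth are unknown, because rlog values keep neither, and no interval can be given. The authors' correlation and p-value columns were not used, and 0 columns of per-sample values were left unmapped. The other samples of the series were not used here.

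Gene names came from GENCODE release 44 on hg38, which matched 43641 of 43869 identifiers. Coordinates were identical for the 34115 identifiers whose versions matched. Changes are resistant line minus naive. A core gene had a highest RNA rlog of at least 4.64 and 3 changes of one sign of at least 0.585 in size. H3K27ac was averaged over the peaks of a gene, and separately over peaks that cover an annotated transcription start. Members and lists were chosen with earlier results of these data known. The genes named are the 15 with the largest smallest change in each direction, 8 per direction with the largest H3K27ac mean in the direction of the RNA in all 3 lines, core genes in the 25 lists, up to 4 other members of a list, 3 genes on each side of the limit, and runs of at least 3 core neighbours within 200 kb. Others are said to have been chosen after their values were seen. The scripts (Python 3.11.15, pandas 2.3.3, numpy 2.4.6) were tested on simulated data. Some genes that the rule names are withheld and not reported here.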

Additional observations from a re-analysis of the deposited data

Results flagged for a closer look

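In 6 core genes the gene-mean H3K27ac change was at least 0.585 upward in 1 line and at least 0.585 downward in another. The share of all genes with this pattern was not counted, so the 6 are described as single genes and not as a trait of the core. Each line had 1 library, and the difference between the lines was not tested. UNC13A, whose RNA was higher in all 3 lines, had changes of 0.60 in erCriz0, -0.81 in erAlec0 and -0.87 in erLor0. MIR100HG, also higher, had 0.75, -0.91 and -0.83, and the keratin pseudogene KRT16P6, likewise higher, 0.65, -1.19 and -1.09. SULF2, whose RNA was lower in all 3 lines, had 0.60, -0.89 and -0.66, PRSS2 had 1.46, -0.49 and -0.61, and MYT1 had 0.95, -0.83 and -0.55. In all 6 genes erCriz0 was the line above naive, while erAlec0 and erLor0 were below it. MIR100HG, KRT16P6 and MYT1 were named after their values had been seen.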

How the results depend on the processing

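No paired analysis was possible because each line had 1 library per assay and the groups shared no replicates. A limit of 1 left 20 higher and 31 lower core genes, and a limit of 0.4 gave 294 and 377. Leaving out 1 line in turn gave 169 to 359 higher and 170 to 340 lower genes, with the highest higher count (359) without erCriz0, 313 without erLor0, and for the lower genes 340 when either of these lines was left out. These counts can only stay or rise, because the rule then has 1 condition fewer. The other settings for the counts (level limit, centring, quantile normalization, chromosome) stayed within 1.5 times. The median gene-mean H3K27ac change was 0.025 for the higher and 0.0061 for the lower genes, and moved to 0.078 and 0.061 with peaks within 5 kb, 0.41 and 0.29 with peaks over a start, 0.21 and 0.21 with the strongest peak, 0.11 and -0.18 with peaks paired with 1 gene, 0.080 and 0.049 with stronger peaks (maximum of at least 3.91), 0.081 and 0.063 after centring, -0.085 and -0.17 with the core at a limit of 1, and -0.019 and -0.11 with every pair counted once. For the lower genes alone it moved to -0.044 after quantile normalization and 0.054 after subtracting the other peaks within 5 Mb. Over all genes at the level limit the median was 0.098. It was 0.12 with peaks within 5 kb, 0.31 over starts, 0.28 with the strongest peak and 0.13 with peaks paired with 1 gene. With stronger peaks it was 0.16, after centring 0.15 and after quantile normalization 0.034. Leaving out 1 line gave medians of 0.0078 to 0.044 for the higher and -0.0040 to 0.025 for the lower genes. The share of higher genes above naive in all lines moved from 29.9% to 56.2% over starts, against 61.9% of all genes. With the strongest peak it was 41.7% against 56.9%, and with the core at a limit of 1 it was 20% against 37.1%. The share of lower genes below naive moved from 23.03% to 7.46% over starts, against 6.30% of all genes, and to 9.21% with the strongest peak, against 5.75%. With 1 line left out the shares lay between 31.5% and 42.5% for the higher and between 25.7% and 41.4% for the lower genes. A rule with 1 line fewer can only keep or raise such a share, and the share of all genes under it was not counted. Leaving out 1 line cannot move a mean over 3 lines by more than their SD, so those values are left out here. For the RNA of named genes, 80 means stayed within the SD of the lines after centring, and 79 after quantile normalization, where 1 moved. For their H3K27ac, 79 stayed and 1 moved after centring, and 75 stayed and 2 moved with stronger peaks. After subtracting the other peaks within 5 Mb, 73 stayed and 7 moved. Depth is unknown, and the single naive library limits every change.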

Other observations

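At start sites the sign of the H3K27ac change differed between the lines in part of the genes. Start-site H3K27ac was above naive in erCriz0 and below it in erAlec0 and erLor0 for 25 of 134 core lower genes (18.7%) and 15 of 112 core higher genes (13.4%), against 7.63% of all genes at the level limit. The reverse pattern, below naive in erCriz0 and above it in the others, was found in 24 core lower genes (17.9%), 10 core higher genes (8.93%) and 7.01% of all genes. With erAlec0 as the line that stood apart, the counts were 4 lower (2.99%) and 2 higher genes (1.79%) above naive, against 0.739% of all genes, and 7 lower (5.22%) and 9 higher genes (8.04%) below it, against 11.8%. With erLor0 apart, they were 2 lower (1.49%) and 4 higher genes (3.57%) above naive, against 3.07%, and 4 lower (2.99%) and 3 higher genes (2.68%) below it, against 1.47%. With the limit of 0.585 in each line, the pattern of erCriz0 above and the others below held for 5 core lower genes (BPIFA2, CALD1, PRSS1, PRSS2 and SOBP), 2 core higher genes (KRT16P2 and UNC13A) and 0.309% of all genes. In BPIFA2, for example, the start-site changes were 0.78, -1.79 and -1.16, and in SOBP 1.14, -1.27 and -1.65, beside an RNA that was lower in all 3 lines. These patterns were looked for after the data had been seen, and the lines had 1 library each.

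Averaged over all peaks of a gene, H3K27ac at several AKR1C and histone genes differed in sign between the lines. Their RNA was lower in all 3. The gene-mean H3K27ac changes of AKR1C2 were -0.34, 1.26 and 0.56 in erCriz0, erAlec0 and erLor0, and those of AKR1C3 -0.14, 1.44 and 0.50, so that the line with the lowest AKR1C2 and AKR1C3 RNA, erAlec0, had the highest mark. In the histone run from H2BC13 to H2BC17 many peaks are paired with several of the genes, and H2AC13 and H2BC13 had the same changes of -0.31, 0.66 and 0.03. H3C1 had -0.30, 0.47 and -0.05, and the median over the 28 measured histone genes was -0.29, 0.47 and -0.069. At start sites AKR1C3 (0.14, 0.85 and 0.31) and H3C1 (0.05, 0.27 and 0.21) were above naive in all 3 lines. AKR1C2 (-0.81, 1.30 and 0.45) and H2AC13 and H2BC13 (-0.44, 0.68 and 0.17) differed in sign there too.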
